A study of Mus musculus with 12 samples.

Results

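Deletion of APC was examined in MC38 tumours that had grown without doxycycline (Dox), as the log2 values of 3 APC-KO tumours minus those of 3 APC-WT tumours. Every gene that had a probe set with a single gene symbol was included. These were 18193 genes, the same as in the whole series, on 6 of its 12 arrays, and 11070 of them were bright enough to be tested. In APC-KO tumours 28 of 39 tested interferon-stimulated genes and 9 of 12 T cell markers were lower, and 10 of 22 targets of hypoxia-inducible factor, 4 of 8 neutrophil markers and 5 of 9 pericyte markers were higher. Of 20 tested Wnt target genes 8 were higher and 3 lower. Among all tested genes 24.9% were called, 13.8% higher and 11.1% lower, and every list count below stands beside these shares.

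MC38 is a colon carcinoma line of the mouse. All cells, in both groups, carried an inducible short hairpin against Tdo2 (ishTDO2), and they were injected into the cecum of C57BL/6 mice. The 2 groups compared were APC-WT and APC-KO, both without Dox, with 3 tumours each, and the same genotype contrast in 6 other tumours given Dox in the drinking water is set beside it. The labels speak of tumours and the series' design text of cell lines. Whether each tumour came from its own animal, whether APC-KO was 1 clone and which part of Apc was deleted were not stated in the labels. The p-values measure the spread between the 3 samples of a group, pooled over all 4 groups of the series, and that spread may be technical only. RNA of host cells was measured together with that of the tumour cells, and in such bulk samples fewer cells of a type and less RNA per cell cannot be told apart.

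APC is the scaffold of the destruction complex, in which axin, GSK3 and casein kinase mark beta-catenin for degradation. When the complex fails, beta-catenin enters the nucleus, binds TCF and LEF proteins and drives target genes such as the feedback inhibitor Axin2. Loss of APC is the best known early lesion of colon cancer.

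Expression values are log2 values of Affymetrix arrays. A difference is APC-KO minus APC-WT on that scale, ± the standard error of the limma fit, over 3 tumours per group, and the adjusted p is Benjamini-Hochberg over the 11070 tested genes, with a gene called at 0.05. A gene was tested where its mean over all arrays reached 5.55, a filter on level and not a measured background. For a gene with one group wholly below this level, only the smallest fold that 5.55 allows is given, as "at least".

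Apc had 3 probe sets brighter than the level filter and another at a mean of 3.13. The brightest gave 8.57, 8.39 and 8.41 in the 3 APC-WT tumours and 8.41, 8.29 and 8.35 in the APC-KO tumours, which overlap, and the difference of -0.10 ± 0.07 did not pass (adjusted p 0.271). The other two were separated between the groups. One gave 7.84, 7.70 and 7.57 against 7.02, 6.75 and 6.82, a difference of -0.84 ± 0.09, and the other 6.63, 6.28 and 6.25 against 6.13, 5.84 and 5.97, a difference of -0.41 ± 0.11 (adjusted p over all probe sets 1.11e-05 and 0.0172). All 3 differed in the same direction, and whether their targets lie in the deleted part of the gene could not be read from the sources. The mean of the probe sets differed by -0.33, and without APC-WT replicate 1 the brightest probe set differed by -0.05. Tdo2, the enzyme that the hairpin targets, was under the filter on all arrays, its brightest probe set at 3.81, 3.82 and 4.00 in APC-WT and 3.62, 3.74 and 3.70 in APC-KO tumours.

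Markers of colon epithelium, the tissue of origin, were mostly dim. Of 33 on the array, 28 were under the filter on all arrays without Dox and 5 were tested. The mean over the list was 4.14 to 4.24 in APC-WT and 4.13 to 4.23 in APC-KO tumours. The epithelial adhesion gene Epcam was measured at 7.04, 7.15 and 7.09 against 7.19, 7.42 and 7.33 (0.22 ± 0.09, adjusted p 0.0887). Macrophage genes were bright in both groups, with a list mean of 9.14 to 9.23 and 9.17 to 9.26.

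Promoters are shown for genes of the 2 groups of genes that are described at most length, the interferon-stimulated genes, which were lower in APC-KO tumours, and the targets of hypoxia-inducible factor (HIF), which were higher. Both groups are defined by a transcription factor with a known short recognition sequence. Each line below is 150 bases of RefSeq sequence on build GRCm38.p6, read 5′ to 3′ on the gene's strand and ending within 250 bases upstream of the transcription start or just at it, and the genes were picked after their values were seen. Capitals mark the core of the interferon-stimulated response element (GAAA, any 2 bases, GAAA) in the first 3, and ACGTG, the core of the hypoxia response element, in the last 2.

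Irgm2, chr11:58214827-58214976, plus strand, motif beginning 64 bases before the start: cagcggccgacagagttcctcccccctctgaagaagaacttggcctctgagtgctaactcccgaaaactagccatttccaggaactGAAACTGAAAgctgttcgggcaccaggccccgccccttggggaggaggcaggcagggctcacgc

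Igtp, chr11:58199406-58199555, plus strand, motif beginning 34 bases before the start: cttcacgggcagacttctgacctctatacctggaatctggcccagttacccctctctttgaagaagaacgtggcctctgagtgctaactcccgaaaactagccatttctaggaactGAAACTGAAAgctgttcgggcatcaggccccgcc

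Oas3, chr5:120777660-120777809, minus strand, motif beginning 75 bases before the start: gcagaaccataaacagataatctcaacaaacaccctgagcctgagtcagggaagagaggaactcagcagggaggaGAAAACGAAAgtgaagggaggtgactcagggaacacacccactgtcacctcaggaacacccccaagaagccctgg

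Slc2a1, chr4:119108595-119108744, plus strand, motif beginning 36 bases before the start: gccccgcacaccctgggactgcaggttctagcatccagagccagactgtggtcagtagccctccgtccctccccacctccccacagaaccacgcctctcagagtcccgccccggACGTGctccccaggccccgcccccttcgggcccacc

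Hilpda, chr6:29272476-29272625, plus strand, motif beginning 43 bases before the start: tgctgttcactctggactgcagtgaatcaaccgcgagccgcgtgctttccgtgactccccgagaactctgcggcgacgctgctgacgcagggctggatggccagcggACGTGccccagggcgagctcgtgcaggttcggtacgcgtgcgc

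The motifs were searched on both strands in the 250 bases before each start. The interferon core lay in 2.98% of 32851 promoters and in 3.27% of the 8957 tested genes that had a promoter in the table. It lay in 15 of 28 interferon-stimulated genes with a promoter, 9 of the 19 that fell among them. ACGTG, which also lies within the E-box CACGTG, was in 16.6% of promoters and 25.3% of tested genes, and in 13 of 18 HIF targets, 7 of the 9 that rose among them. ATCAAAG, the core bound by TCF and LEF proteins, was in 3.21% of promoters and 2.77% of tested genes, and in 0 of 12 Wnt target genes with a promoter. These matches describe letters in a window and say nothing about binding.

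The genotypes differed in 2753 genes (24.9% of those tested), 1525 higher in APC-KO tumours (13.8%) and 1228 lower (11.1%). The balance depended on single arrays: without APC-WT replicate 3 there were 1335 higher and 1404 lower, and without APC-WT replicate 1 there were 1365 higher and 807 lower. With arrays centred on their median there were 1769 higher and 1016 lower. Most differences were small. The median was 0.01 and the median size 0.13 on the log2 scale, and only 103 genes (0.93%) passed with a difference of at least 2-fold, 56 of them higher (0.506%) and 47 lower (0.425%). The 3 values of one group lay wholly above those of the other in 4120 genes (37.2%). The Dox tumours share no array with this comparison, but both contrasts use the same pooled spread, so their calls are not independent. In the Dox tumours 2205 genes passed (19.9%), 1320 higher (11.9%) and 885 lower (7.99%). Of these, 116 passed by at least 2-fold (1.05%), 67 higher (0.605%) and 49 lower (0.443%). Of the 2753 genes, 2540 had the same sign there (92.3%), against 72.1% of all tested genes, and 1355 also passed (49.2% of the genes called without Dox and 61.5% of those called with Dox), while 4 passed with the opposite sign. Over all tested genes Pearson's r of both sets of differences was 0.68, a description across genes, which are not independent.

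**Figure D1:**
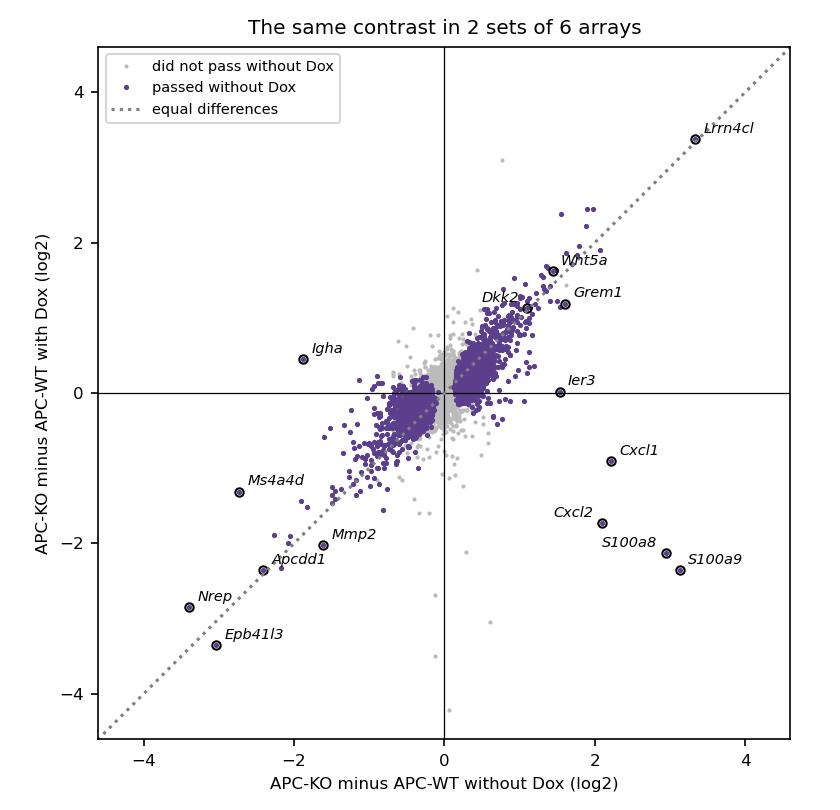
APC-KO minus APC-WT differences (log2) of the 11070 tested genes, without Dox on the horizontal axis and with Dox on the vertical axis, each over 3 and 3 arrays. Points along the dotted line differ by the same amount in both sets; Lrrn4cl (3.33 and 3.38), Nrep (-3.39 and -2.85) and Epb41l3 (-3.03 and -3.35) lie near it, whereas S100a8, S100a9 and Cxcl2 rose without Dox and were lower with Dox.

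On the brightest probe set of each gene, Nrep and Epb41l3 fell most. Nrep, which encodes the small neuronal regeneration related protein, gave 10.08, 10.28 and 10.01 in APC-WT tumours and 6.57, 6.69 and 6.93 in APC-KO tumours. It was 10.5-fold lower (-3.39 ± 0.12, adjusted p 2.97e-09), and -2.85 with Dox. Epb41l3, a membrane skeleton protein of the band 4.1 family, fell from 8.80, 8.70 and 8.79 to 5.93, 5.51 and 5.77 (-3.03 ± 0.12, 8.14-fold). Neither gene's groups came near each other, and the spread within a group was a small part of the gap.

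Apcdd1, a membrane-bound inhibitor of Wnt signalling that is also one of the pathway's targets, was 8.15, 8.15 and 8.38 in APC-WT and 6.02, 5.76 and 5.67 in APC-KO tumours (-2.41 ± 0.23, adjusted p 9.13e-06, and -1.41 as the mean of its probe sets). The leukocyte membrane gene Ms4a4d fell from 7.74, 7.56 and 7.85 to 4.96, 4.58 and 5.41, at least 4.48-fold. Chst15, a chondroitin sulfotransferase, fell by 2.27 ± 0.12 and Cd99, a leukocyte adhesion molecule, by 2.17 ± 0.09. Arap2 was at least 2.60-fold lower and the glutathione transferase Gstt2 at least 1.84-fold.

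Adamts9, Mmp2, Mgp, Ogn and Apod, which encode secreted proteins, were among the 15 largest falls. The metalloprotease Adamts9 was 8.33, 8.18 and 8.07 against 6.07, 6.11 and 6.15 on its brightest probe set (-2.08 ± 0.10). A dimmer probe set gave 8.29, 8.35 and 7.97 against 4.87, 4.73 and 4.98, the latter all below the level filter (-3.34 ± 0.11). Another, with a mean just under the filter, differed by -0.32 ± 0.13. Mmp2, the gelatinase of stromal cells, was 9.26, 8.83 and 8.98 against 7.64, 7.50 and 7.10 (-1.61 ± 0.20, and -2.02 with Dox). The matrix Gla protein Mgp varied more within groups, at 9.64, 10.05 and 8.66 against 7.96, 6.84 and 7.83, and still did not overlap (-1.91 ± 0.30). The small proteoglycan Ogn fell by 1.83 ± 0.29, the lipocalin Apod by 1.60 ± 0.22 and the matrix glycoprotein Tinagl1 was also among them. The heavy chain of immunoglobulin A, Igha, was 9.09, 9.07 and 7.55 against 7.16, 6.42 and 6.48 (-1.88 ± 0.36, adjusted p 0.00224), and with Dox it differed by 0.45, which did not pass.

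The largest rise was in Lrrn4cl, a leucine-rich repeat membrane protein, at 6.75, 6.92 and 6.43 in APC-WT and 9.83, 10.17 and 10.08 in APC-KO tumours (3.33 ± 0.22, 10.0-fold, adjusted p 4.37e-07), and 3.38 with Dox. The calprotectin subunits S100a9 and S100a8, stored in neutrophils, came next. S100a9 was 4.33, 6.53 and 6.88 against 10.00, 9.51 and 7.60 (3.13 ± 0.70, adjusted p 0.00574), and S100a8 was 4.25, 6.25 and 6.56 against 9.35, 9.17 and 7.35 (2.94 ± 0.64, adjusted p 0.00473). Both were low in APC-WT replicate 1 and lowest among APC-KO tumours in replicate 3, which still lay above every APC-WT tumour.

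Cxcl1, a chemokine that attracts neutrophils, gave 7.21, 7.51 and 8.80 against 10.44, 10.64 and 9.07 (2.21 ± 0.46, adjusted p 0.00382, and 1.44 as the mean of its probe sets). A probe set of mean 8.24 overlapped between groups, at 7.67, 8.26 and 8.76 against 8.36, 8.73 and 8.27. It differed by 0.22 ± 0.24 (limma adjusted p over all probe sets 0.623). Another, of mean 8.05, differed by 1.87 ± 0.38 (0.00324). The related chemokine Cxcl2 gave 4.88, 6.43 and 6.10 against 8.60, 7.79 and 7.28 (2.09 ± 0.54, adjusted p 0.0132). That call was lost without APC-WT replicate 1 (0.0621), without APC-KO replicate 1 (0.0597) and with array weights (0.0726). Ier3, an immediate early gene of NF-kB, gave 9.28, 8.69 and 9.55 against 10.86, 11.02 and 10.23 (1.53 ± 0.24, and 0.02 with Dox).

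Other genes with large rises were tighter within groups than S100a8, S100a9, Cxcl1 and Cxcl2, and also rose with Dox. Neto2, an auxiliary subunit of kainate receptors, was 5.67, 5.70 and 5.64 against 7.85, 7.48 and 7.90 (2.07 ± 0.36). The arsenic methyltransferase As3mt rose by 1.97 ± 0.19, and prostacyclin synthase, Ptgis, was 5.44, 5.15 and 5.08 against 7.17, 6.90 and 7.24, at least 2.93-fold higher. Angptl7, a secreted angiopoietin-like protein, rose by 1.79 ± 0.24, the transcription factor Hlf by 1.76 ± 0.14, the fatty acid elongase Elovl4 by 1.70 ± 0.20, and the ferritin receptor Scara5 by 1.55 ± 0.16 (0.84 as the mean of its probe sets). Grem1, a secreted BMP antagonist, was 8.60, 9.02 and 9.40 against 10.68, 10.39 and 10.75 (1.60 ± 0.17, and 1.19 with Dox). Prickle1, a planar cell polarity protein of the non-canonical Wnt pathway, was 5.89, 5.82 and 5.45 against 7.48, 7.07 and 7.47 (1.62 ± 0.15).

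**Figure D2:**
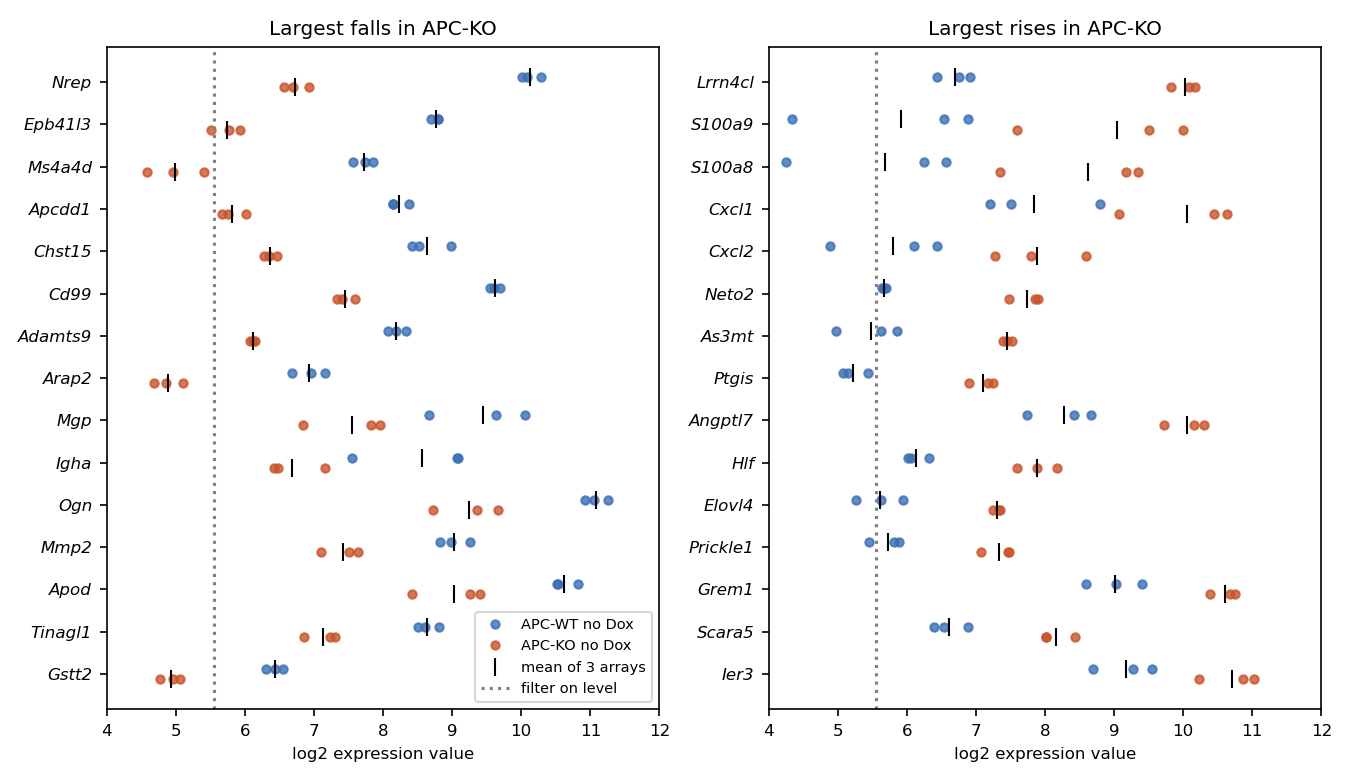
Log2 values of the 15 genes that fell most (left) and the 15 that rose most (right) among named genes whose groups do not overlap; each point is 1 array without Dox, the black tick is the mean of 3 arrays and the dotted line is the level filter of 5.55. Nrep falls from above 10 to below 7, and S100a9, S100a8 and Cxcl1 rise with more spread within groups than Lrrn4cl or Ptgis.

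Of 39 Wnt ligands, receptors and secreted inhibitors on the array 24 were tested, with 3 higher, 2 lower and a median of -0.01. The share called, 20.8%, was below the 24.9% of all tested genes. Wnt5a, a ligand known mainly for non-canonical signalling, was 7.70, 8.04 and 8.07 in APC-WT and 9.51, 9.38 and 9.26 in APC-KO tumours (1.44 ± 0.20, 2.72-fold, adjusted p 0.000187), and 1.62 with Dox. The Frizzled receptor Fzd8 was 5.70, 6.03 and 5.78 against 6.93, 7.05 and 6.73 (1.07 ± 0.13), and Fzd5 rose by 0.76 ± 0.09 (0.40 as the mean of its probe sets). The groups were separate for all 3. Wnt7b overlapped between groups (-0.35 ± 0.11, adjusted p 0.0274), and its call was lost without APC-WT replicate 1 or 3 or APC-KO replicate 1 or 3 (up to 0.111) and with only the 2 groups in the fit (0.0553). It fell by 0.99 with Dox. Without APC-KO replicate 3, 5 of the 24 were higher and 1 lower. The 2 lower genes became 0 without APC-KO replicate 1 and with only the 2 groups in the fit, and 1 without APC-WT replicate 1 or 2.

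In the destruction complex and its nuclear partners 25 genes were tested, with 5 higher, 4 lower and a median of 0.06. The share called was 36.0%, beside 24.9% of all tested genes. Beta-catenin, Ctnnb1, was 12.53, 12.51 and 12.50 against 12.51, 12.54 and 12.52 (0.01 ± 0.03, adjusted p 0.845), its sign turning with quantile normalization (-0.02) and with the mean of its probe sets (-0.04). Lef1, the transcription factor that pairs with beta-catenin and is itself a target, was 6.72, 6.47 and 6.69 against 7.12, 6.90 and 7.04 (0.39 ± 0.09, adjusted p 0.00664), and 0.48 with Dox. The ubiquitin ligase subunit Btrc (0.30 ± 0.08) and the tankyrase Tnks2 (0.24 ± 0.05) passed on their brightest probe set and not as the mean of their probe sets (-0.05 and -0.03). The membrane adaptor Amer1 fell by 0.35 ± 0.10 and lost its call without APC-WT replicate 1 (adjusted p 0.102), APC-KO replicate 2 (0.0981) or replicate 3 (0.0661) and with only the 2 groups in the fit (0.0796). The count of 4 lower genes was 2 without APC-WT replicate 1 or 3 or APC-KO replicate 2 or 3.

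Of 39 Wnt target genes on the array 18 were under the filter on all arrays without Dox, among them Lgr5, Ascl2, Notum, Nkd1 and Sp5. Of the 20 tested, 8 were higher and 3 lower, beside 13.8% higher and 11.1% lower among all tested genes. The median was 0.09 against 0.01 over all tested genes (0.15 without APC-KO replicate 3). Of the called targets 6 also passed in the same direction with Dox, beside 49.2% of all genes called without Dox. The count of 8 was 6 without APC-WT replicate 1 or 2 or APC-KO replicate 2. It was also 6 with only the 2 groups in the fit and with the mean of probe sets. Dkk2, a secreted Wnt modulator, was 9.20, 9.30 and 8.73 against 10.30, 10.17 and 10.07 (1.10 ± 0.12, 2.15-fold), and 1.13 with Dox. The nuclear receptor Ppard rose by 0.48 ± 0.09 (0.25 as the mean of its probe sets). Lef1 was among the 8, as were the BMP pseudoreceptor Bambi (0.33 ± 0.09), the matricellular Ccn4 (0.33 ± 0.08), the AP-1 subunit Jun (0.22 ± 0.07) and the BMP coreceptor Rgmb (0.36 ± 0.08, and 0.05 as the mean of its probe sets). Vegfa, which is also a HIF target, rose by 0.64 ± 0.17 (adjusted p 0.0152), and lost its call without APC-WT replicate 1 (0.0525) or 2 (0.0663) or APC-KO replicate 2 (0.0516).

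Other members of the target list did not pass or were lower. Axin2 was 6.26, 6.42 and 6.54 in APC-WT and 6.50, 6.57 and 6.16 in APC-KO tumours (0.00 ± 0.12, adjusted p 0.993). Myc was 9.57, 9.82 and 9.67 against 9.95, 9.76 and 9.54 (0.06 ± 0.10, adjusted p 0.719), and its sign turned with array weights (-0.05) and without APC-KO replicate 1 (-0.04). The groups overlapped for both. Cyclin D1, Ccnd1, was lower by a small and tightly measured amount, at 11.98, 11.93 and 11.98 against 11.76, 11.71 and 11.72 (-0.24 ± 0.04, adjusted p 0.00131), and -0.22 with Dox. Beside Apcdd1 and Ccnd1, the inhibitory helix-loop-helix factor Id2 was the third lower target (-0.44 ± 0.12), a call that was lost without APC-WT replicate 1 (0.0691), APC-KO replicate 1 (0.0649) or replicate 2 (0.0537) and with array weights (0.0628).

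Interferon-stimulated genes, which cells switch on when they sense interferon, were lower in APC-KO tumours. Of 39 tested, 28 fell and 0 rose, beside 11.1% lower among all genes. All 39 differences were below 0, with a median of -0.57, and in 32 genes the groups did not overlap, beside 37.2% of all tested genes. Mean levels over the list were 9.34 to 9.63 in APC-WT and 8.58 to 9.14 in APC-KO tumours. With Dox 10 fell and 0 rose, at a median of -0.12, beside 7.99% lower among all genes. There the mean levels overlapped, at 8.85, 9.07 and 9.16 in APC-WT against 8.98, 8.97 and 8.55 in APC-KO tumours. All 3 APC-WT tumours with Dox lay below those without Dox, and they overlapped both APC-KO groups. The interaction had an unadjusted p under 0.05 in 20 of the 39, beside 11.9% of all tested genes, and an adjusted one in 0. The count of 28 was 16 without APC-WT replicate 1 (median -0.49) and 18 without APC-KO replicate 2 (median -0.38).

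Gbp6, a guanylate-binding protein of the defence against intracellular pathogens, was 10.11, 9.49 and 9.91 against 8.77, 8.26 and 8.68 (-1.27 ± 0.20, adjusted p 0.000521). Irgm2, an immunity-related GTPase whose promoter is printed above, was 10.21, 9.93 and 10.19 against 9.19, 8.89 and 9.35 (-0.97 ± 0.15), and its paralog Igtp fell by 0.65 ± 0.14. Both were separated between groups and also fell with Dox, by 0.70 and 0.63, and cross-hybridisation between such paralogs was not tested. The oligoadenylate synthetase Oas3 was 6.84, 6.15 and 6.28 against 5.35, 5.29 and 5.92 (-0.90 ± 0.22, adjusted p 0.00816).

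Factors that carry the interferon signal were among the lower genes of this list. Stat2 was 7.96, 7.67 and 7.64 against 6.93, 6.62 and 6.92 (-0.93 ± 0.14, adjusted p 0.000349), with -0.28 in the Dox tumours, which did not pass. Its partner Irf9 fell by 0.67 ± 0.13. Irf7, the amplifier of type I interferon, was 9.92, 9.75 and 9.69 against 9.00, 8.25 and 9.40 (-0.90 ± 0.25), and lost its call without APC-WT replicate 1 (0.0602) or APC-KO replicate 2 (0.0633). The deconjugase Usp18, a brake on the receptor, fell by 1.16 ± 0.28 (0.77 without APC-KO replicate 2), and the RNA sensor Dhx58 by 0.96 ± 0.17 (0.64 as the mean of its probe sets).

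Of 20 tested antigen presentation genes 8 were lower, beside 11.1% of all genes, and 0 higher, with a median of -0.16 (-0.25 without APC-WT replicate 2), and with Dox also 8 were lower and 0 higher. Nlrc5, the transactivator of MHC class I, was 9.64, 9.33 and 9.42 against 8.86, 8.70 and 8.74 (-0.70 ± 0.12, adjusted p 0.000876), and -0.61 with Dox. The peptide transporter Tap1 fell by 0.58 ± 0.11 and the immunoproteasome subunit Psmb9 by 0.48 ± 0.10, both separated between groups. Psmb10 fell by 0.38 ± 0.10 and lost its call without APC-WT replicate 1 (0.0515) or 3 (0.0634) and with array weights (0.0568). The light chain B2m differed by -0.07 ± 0.04 and did not pass. The count was 4 without APC-WT replicate 3, and 5 without APC-WT replicate 1, without APC-KO replicate 1, with array weights and with the mean of probe sets.

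Of 16 T cell markers on the array 12 were tested, 9 fell, beside 11.1% of all genes, and 0 rose, with a median of -0.59. On all arrays without Dox 4 lay under the filter. Mean levels over the list were 6.36 to 6.62 in APC-WT and 5.98 to 6.05 in APC-KO tumours, without overlap. With Dox 5 fell and 0 rose, at a median of -0.25. There the mean levels overlapped, at 6.07, 6.26 and 6.29 in APC-WT against 6.15, 5.75 and 5.84 in APC-KO tumours. The part of T cells in the interferon difference was not tested. Cd8b1, a chain of the CD8 coreceptor, was 7.51, 7.35 and 7.71 against 6.26, 6.68 and 6.46 (-1.05 ± 0.20, adjusted p 0.00181), and Cd8a fell by 0.69 ± 0.15. Cd3g, of the T cell receptor complex, was 7.84, 7.67 and 8.14 against 6.90, 7.03 and 6.81 (-0.97 ± 0.23, and -1.04 with Dox). Cd2 was at least 1.48-fold lower. Cd4 was 5.97, 5.97 and 6.07 against 6.03, 6.02 and 6.08, which overlap (0.04 ± 0.07). At the stricter level filter of 7.81 only 1 marker was left and it did not pass.

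Of 10 tested markers of natural killer cells 5 fell, beside 11.1% of all genes, and 0 rose, with a median of -0.57, which was 0.01 over 15 markers without a filter on level, and 3 fell with array weights. The receptor Klrc1 fell by 0.90 ± 0.20 and the granule gene Nkg7, at 8.76, 8.45 and 8.80 against 7.72, 7.69 and 7.96, by 0.88 ± 0.16. Perforin, Prf1, fell by 0.80 ± 0.19 (adjusted p 0.0642 without Dox with array weights). Of 13 granzyme and perforin genes 5 fell, beside the same 11.1%, and 0 rose (3 with array weights), with a median of -0.35 (-0.19 without APC-WT replicate 1 and -0.54 without APC-WT replicate 2). Granzyme B, Gzmb, was 9.51, 8.68 and 9.16 against 7.98, 7.64 and 8.73, which overlap (adjusted p 0.0196), and lost its call without APC-WT replicate 1 (0.0849), APC-KO replicate 1 (0.0634) or replicate 2 (0.0812) and with array weights (0.115).

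Among 19 immune checkpoint genes 4 fell, beside 11.1% of all genes, and 0 rose, with a median of -0.11 (-0.07 without APC-WT replicate 1 and -0.20 without APC-WT replicate 2). Lag3, an inhibitory receptor of exhausted T cells, was 6.94, 6.62 and 6.85 against 6.14, 6.07 and 6.14 (-0.69 ± 0.11, adjusted p 0.00064), and -0.61 with Dox. The costimulatory receptors Tnfrsf18 (-0.61 ± 0.13), Icos (-0.59 ± 0.13) and Tnfrsf4 (-0.40 ± 0.10) were the other 3. With Dox they differed by -0.06, 0.21 and -0.08, none of which passed, and the interaction did not pass for them (adjusted p 0.293, 0.191 and 0.407). Among 11 dendritic cell genes Batf3, a factor of the cross-presenting subset, rose (0.37 ± 0.09), and the factor Zbtb46 (-0.51 ± 0.13, adjusted p 0.0687 as the mean of its probe sets) and Bst2 (-0.53 ± 0.12) were among the 3 that fell. Of 2 tested genes of B cells 0 passed.

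**Figure D3:**
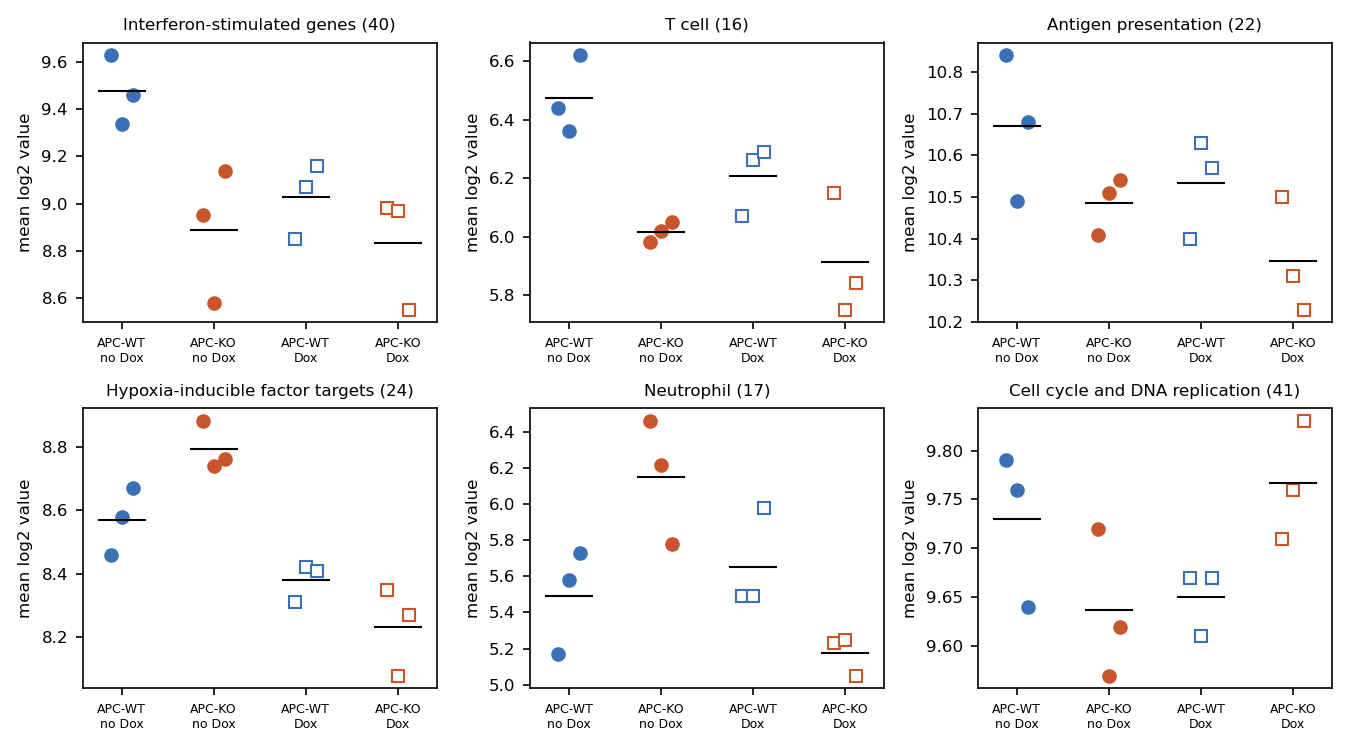
Mean log2 value over the genes of a list that are on the array (their number in brackets), 1 symbol per tumour, in the 4 groups; the line is the mean of 3 tumours, and the vertical axes differ and do not start at 0. Interferon-stimulated and T cell lists lie lower in APC-KO tumours than in the APC-WT tumours without Dox, with no overlap, and the hypoxia and neutrophil lists are higher there and not with Dox.

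Of 17 neutrophil markers on the array 8 were tested, 4 rose, beside 13.8% of all genes, 0 fell and 4 did not pass. The median was 0.38, and 7 lay under the filter on all arrays without Dox. List means were 5.17 to 5.73 in APC-WT and 5.78 to 6.46 in APC-KO tumours. With Dox 0 rose and 3 fell. Beside S100a8 and S100a9, the gelatinase Mmp9 was 9.18, 8.30 and 9.09 against 9.76, 9.79 and 9.63 (0.87 ± 0.17, adjusted p 0.00276), and Csf3r, the receptor for G-CSF, rose by 0.41 ± 0.09. Values of S100a8 and S100a9 came with wide spread within both groups, and the groups of Csf3r and Mmp9 did not overlap.

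Inflammatory cytokines and NF-kB feedback genes included 7 that rose, beside 13.8% of all genes, and 0 that fell of 24 tested, with a median of 0.23. Without APC-WT replicate 2, 4 rose, and without APC-KO replicate 1 the median was 0.13. With Dox 1 rose and 1 fell. Ptgs2, the inducible cyclooxygenase, was 8.02, 8.08 and 8.40 against 9.65, 9.11 and 8.56 (0.94 ± 0.19, adjusted p 0.00345), with no overlap. Il1b overlapped at 8.75, 7.16 and 8.00 against 9.33, 9.10 and 8.66 (1.06 ± 0.30, adjusted p 0.0209). Its call was lost without APC-WT replicate 2 (0.0755, 0.65), APC-KO replicate 1 (0.081) or replicate 2 (0.054) and with only the 2 groups in the fit (0.0511). Of 22 chemokines 4 rose and 3 fell (31.8% called, beside 24.9% of all tested genes), with Cxcl1 and Cxcl2 far beyond the others. The T cell attractants Cxcl11 (-0.73 ± 0.21) and Ccl22 (-0.70 ± 0.20) were lower, and both lost the call, Cxcl11 also without APC-WT replicate 3 (0.0522), without APC-WT replicate 1 (0.0904 and 0.0811) or APC-KO replicate 2 (0.0865 and 0.0781) and with array weights (0.12 and 0.0562). Without APC-KO replicate 2, 0 chemokines fell, without APC-WT replicate 1 or 3, 1 fell, and without APC-WT replicate 1 or APC-KO replicate 1, 2 rose.

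Macrophage and monocyte genes changed little. Of 23 tested 5 rose and 0 fell (21.7% called, beside 24.9% of all tested genes), with a median of 0.07. The fractalkine receptor Cx3cr1 rose by 0.40 ± 0.08, the receptor Csf1r by 0.28 ± 0.06 and Ms4a7 by 0.24 ± 0.06. Cd14, the coreceptor for lipopolysaccharide, was 9.44, 9.14 and 9.47 against 9.83, 9.77 and 9.61 (0.38 ± 0.09, adjusted p 0.00867). With Dox 2 of the list rose and 4 fell.

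Of 22 tested HIF targets 10 rose and 1 fell, beside 13.8% higher among all genes, with a median of 0.29. Mean levels over the list were 8.46 to 8.67 in APC-WT and 8.74 to 8.88 in APC-KO tumours. With Dox 1 rose and 4 fell, at a median of -0.20. The interaction had an unadjusted p under 0.05 in 10, beside 11.9% of all tested genes. Without APC-WT replicate 1 or APC-KO replicate 1 the count of 10 was 5, and without APC-WT replicate 2 it was 6. The median was 0.18 without APC-KO replicate 1. Hilpda, a lipid droplet protein induced by low oxygen, was 7.65, 7.92 and 8.15 against 9.08, 9.30 and 8.63 (1.10 ± 0.16, 2.14-fold, adjusted p 0.000376). The glucose transporter Slc2a1 was 9.90, 9.67 and 10.26 against 10.89, 10.68 and 10.54 (0.76 ± 0.14, adjusted p 0.00174), and -0.35 with Dox. The oxygen sensor Egln3, itself a HIF target, rose by 0.73 ± 0.13. The groups were separate for all 3. The collagen prolyl hydroxylase P4ha2 (0.82 ± 0.22) lost its call without APC-WT replicate 1 (0.0655), APC-KO replicate 1 (0.0714) or replicate 3 (0.0605). The mitophagy gene Bnip3 (0.70 ± 0.21) lost its call without APC-WT replicate 1 (0.122) or 2 (0.0706) or APC-KO replicate 1 (0.1) or 2 (0.0745).

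Glycolysis was mixed, with 5 of 19 genes higher, 3 lower and a median of 0.03 (42.1% called, beside 24.9% of all tested genes). Hexokinase 2, Hk2, rose from 9.03, 8.76 and 9.20 to 9.43, 9.41 and 9.47 (0.44 ± 0.10), and the phosphoglycerate mutase Pgam1 rose by 0.33 ± 0.05. The muscle phosphofructokinase Pfkm fell by 0.36 ± 0.08. With Dox 0 rose and 8 fell. In oxidative phosphorylation 9 of 34 subunit genes were higher and 1 lower, each by little, at a median of 0.07. The share called was 29.4%, beside 24.9% of all tested genes. The complex I subunits Ndufa4 (0.35 ± 0.06), Ndufb8 (0.28 ± 0.05) and Ndufv1 (0.25 ± 0.06) and the complex IV subunit Cox8a (0.35 ± 0.05, and 0.20 as the mean of its probe sets) led the higher genes.

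Cell cycle genes showed 8 lower and 1 higher of 41, with a median of -0.11, and with Dox 9 were higher and 1 lower, at a median of 0.13. The interaction had an unadjusted p under 0.05 in 21 of them and an adjusted one in 0. Cenpf, a kinetochore protein, was 10.42, 10.32 and 10.17 against 9.88, 9.85 and 9.76 (-0.47 ± 0.06, adjusted p 0.000205). The mitotic cyclin Ccnb2 fell by 0.35 ± 0.05, the spindle protein Nusap1 by 0.31 ± 0.07 and the kinase Cdk1 by 0.30 ± 0.07. The count of 8 was 4 without APC-WT replicate 1 or APC-KO replicate 2, 5 without APC-WT replicate 2 or APC-KO replicate 3, and 13 without APC-WT replicate 3 or APC-KO replicate 1. It was 14 with quantile normalization, 5 without the trend and 4 with arrays centred or with only the 2 groups in the fit. Of 6 histone genes the clustered H2ac19 (0.87 ± 0.12) and H2bc21 (0.62 ± 0.11) rose and H2ax, which marks broken DNA, fell (-0.35 ± 0.06).

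**Figure D4:**
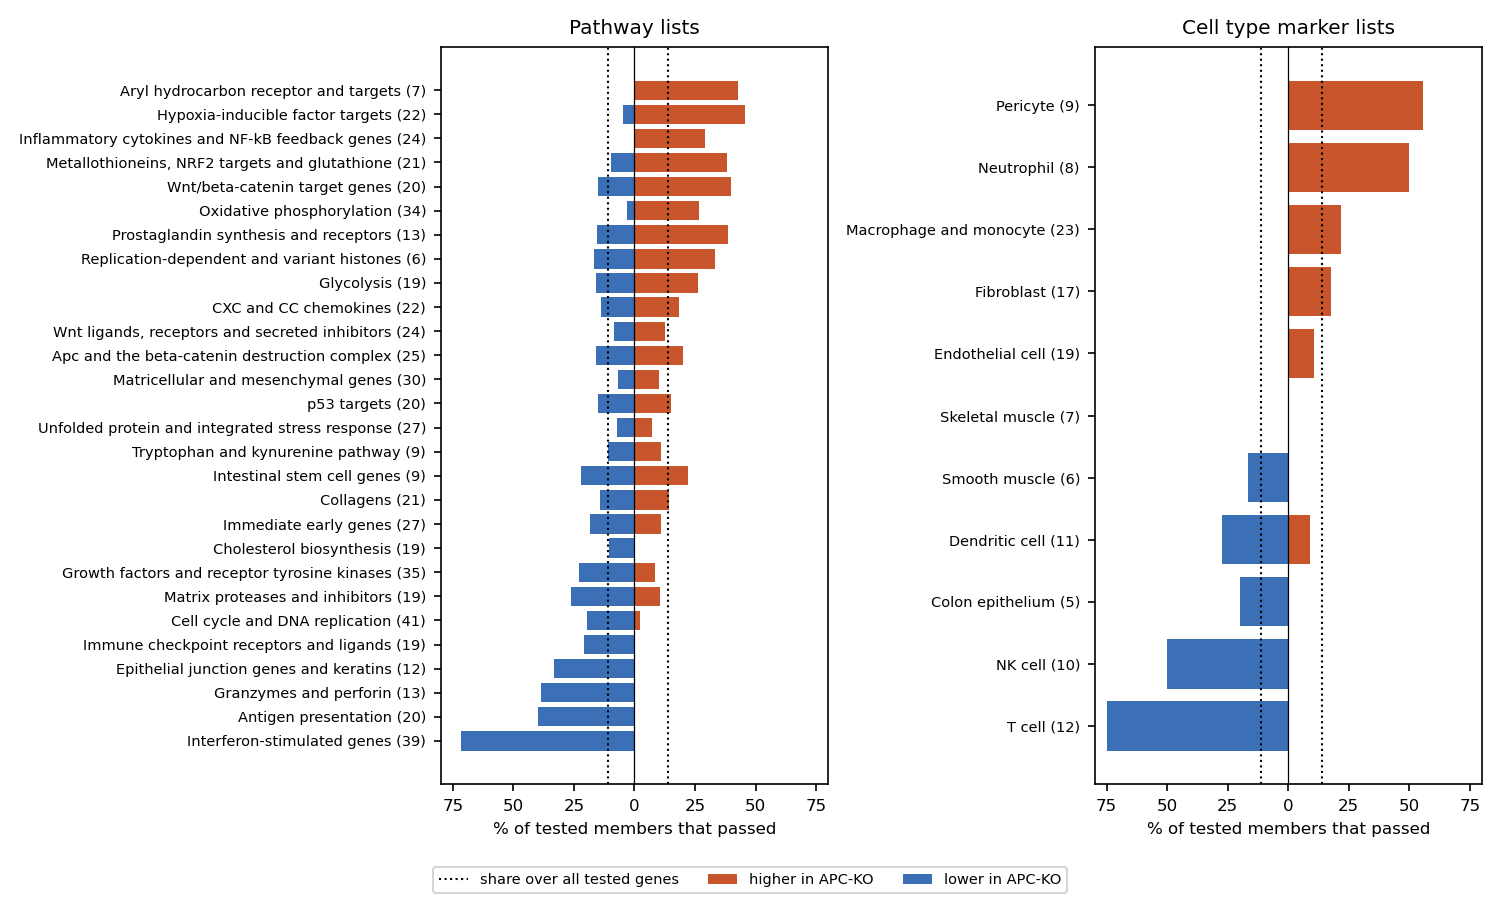
Share of the tested members of each list (number in brackets, lists with at least 5) that were higher (right, orange) or lower (left, blue) in APC-KO tumours than in those of APC-WT without Dox by limma's adjusted p; dotted lines are the shares over all tested genes, 13.8% and 11.1%. T cell and interferon-stimulated lists reach furthest to the left and the pericyte, neutrophil and HIF lists furthest to the right.

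Matrix genes changed in both directions. Of 21 collagens 3 rose and 3 fell (28.6% called, beside 24.9% of all tested genes). Col8a1, a short-chain collagen of vessel walls, was 8.81, 8.42 and 8.34 against 9.77, 9.76 and 9.45 (1.14 ± 0.16). Col7a1, of the anchoring fibrils beneath epithelia, was 8.36, 8.04 and 8.17 against 7.18, 7.19 and 6.76 (-1.14 ± 0.13), and the basement membrane collagen Col18a1 fell by 0.82 ± 0.09. All 3 kept their direction with Dox, at 1.15, -0.71 and -0.93. Among 30 matricellular genes Ltbp2, which binds fibrillin, rose by 1.01 ± 0.18, and tenascin C, Tnc, fell from 7.52, 7.20 and 6.59 to 5.94, 5.66 and 6.05 (-1.22 ± 0.21, and -0.65 with Dox). Of 19 proteases and inhibitors 2 rose and 5 fell (36.8% called, beside the same 24.9%), 2 of which fell without APC-WT replicate 1 or 2. The tissue plasminogen activator Plat rose by 0.51 ± 0.09 (0.34 as the mean of its probe sets).

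Epithelial genes were few. Of 38 junction genes and keratins on the array 24 lay under the filter on all arrays without Dox. Of the 12 tested, 4 fell and 0 rose (33.3% called, beside 24.9% of all tested genes). The plakophilin Pkp3, of the desmosome, was 7.79, 7.31 and 7.48 against 6.48, 6.76 and 6.50 (-0.95 ± 0.13, adjusted p 0.000246), and -0.74 with Dox. Keratin 8, Krt8, was 11.65, 10.70 and 10.12 against 10.09, 9.13 and 9.58 (-1.22 ± 0.41, adjusted p 0.0447), and lost its call without APC-WT replicate 1 (0.186) or 2 (0.0764) or APC-KO replicate 2 (0.147) or 3 (0.0925) and in 7 other alternatives. Pkp2 (-0.65 ± 0.17) and plakoglobin, Jup (-0.46 ± 0.12), lost theirs without APC-WT replicate 1 (0.0652 and 0.0541) or APC-KO replicate 1 (0.0512 and 0.0573). The count of 4 was 1 without APC-WT replicate 1 and 2 without APC-KO replicate 1. E-cadherin, Cdh1, overlapped between groups (-0.17 ± 0.17). The colon epithelium marker Tspan8 fell by 0.87 ± 0.16.

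Of 9 tested pericyte genes 5 rose, beside 13.8% of all genes, and 0 fell, with a median of 0.33 (0.20 without APC-WT replicate 3, and 3 rose without APC-WT replicate 2, APC-KO replicate 1 or APC-KO replicate 3, and with the mean of probe sets). Abcc9, a subunit of the pericyte potassium channel, was 7.27, 6.80 and 6.98 against 8.14, 8.06 and 8.20 (1.12 ± 0.12, adjusted p 3.45e-05), and its partner Kcnj8 was 6.37, 5.66 and 6.04 against 7.04, 7.05 and 7.32 (1.12 ± 0.15). Rgs5 rose by 0.84 ± 0.18. None of these groups overlapped. Of 19 endothelial genes 2 rose and 0 fell, with a median of 0.22 (5 rose without APC-WT replicate 2 or APC-KO replicate 1, and 1 without APC-WT replicate 3, with a median of 0.08), among them the factor Sox18 (0.41 ± 0.08). Of 17 fibroblast genes 3 rose and 0 fell, with a median of 0.03 (1 rose without APC-WT replicate 3 or APC-KO replicate 1), led in significance by Pdgfra at 10.94, 10.80 and 10.86 against 11.50, 11.47 and 11.26 (0.54 ± 0.07). Of 6 smooth muscle genes 0 rose and 1 fell, with a median of -0.02. The shares called were 10.5%, 17.6% and 16.7% of endothelial, fibroblast and smooth muscle genes, beside 24.9% of all tested genes. The smooth muscle kinase Mylk fell by 0.44 ± 0.10, mesothelin, Msln, by 0.57 ± 0.13, and the neuronal tubulin Tubb3 by 0.70 ± 0.16, each the only member of its list to pass. Of 7 skeletal muscle, 4 erythroid and platelet and 2 mast cell and eosinophil genes 0 passed.

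Of 35 growth factors and receptor tyrosine kinases 8 were lower, 3 higher and 24 did not pass, with a median of 0.03. The share called was 31.4%, beside 24.9% of all tested genes. Of the 11 called, 9 passed in the same direction with Dox, beside 49.2% of all genes called without Dox. Igf2, a fetal growth factor, was 7.62, 7.93 and 7.63 against 6.75, 6.38 and 7.13 (-0.97 ± 0.22), and -0.96 with Dox. Its signalling receptor Igf1r fell by 0.44 ± 0.09 (0.18 as the mean of its probe sets). The EGF receptor ligand Tgfa fell by 0.86 ± 0.20 with overlapping groups (0.31 as the mean of its probe sets), and Erbb3 was at least 1.45-fold lower. Fgf7, a stromal factor for epithelia, rose by 0.67 ± 0.10. With the mean of probe sets 5 of 27 fell.

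Metabolic and stress lists were mixed or small. In the tryptophan pathway, to which Tdo2 belongs, 1 of 9 genes rose and 1 fell (22.2% called, beside 24.9% of all tested genes). The kynurenine aminotransferase Kyat3 was 7.77, 7.48 and 7.73 against 8.61, 8.38 and 8.42 (0.81 ± 0.09, adjusted p 4.39e-05), and 0.45 with Dox, while the formamidase Afmid fell by 0.44 ± 0.10. The aryl hydrocarbon receptor, Ahr, which binds kynurenine, was 8.61, 8.39 and 8.40 against 9.13, 8.78 and 8.99 (0.50 ± 0.11, adjusted p 0.00466). Of its list 3 of 7 rose and 0 fell (42.9% called, beside 24.9% of all tested genes). The third, Tiparp (0.23 ± 0.08, adjusted p 0.0444), lost its call in 14 alternatives, among them array weights (0.163) and the mean of its probe sets (0.223). The other was the quinone reductase Nqo1, at 7.34, 7.36 and 7.01 against 7.95, 8.01 and 8.13 (0.79 ± 0.11).

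Nqo1 is also a target of NRF2, the factor of the oxidative stress response. In the list of metallothioneins, NRF2 targets and glutathione genes 8 of 21 rose and 2 fell, with a median of 0.22 (0.08 without APC-WT replicate 1). The share called was 47.6%, beside 24.9% of all tested genes. Of the 10 called, 8 passed in the same direction with Dox, beside 49.2% of all genes called without Dox. The glutathione transferase Gsta4 was 6.66, 6.88 and 6.81 against 8.02, 8.17 and 8.10 (1.31 ± 0.08, adjusted p 2.96e-07), and Gstm1 rose by 0.88 ± 0.10. Gstt1 went the other way, at 6.92, 6.10 and 6.61 against 5.09, 5.08 and 5.07, at least 1.99-fold lower. The catalytic subunit of glutathione synthesis, Gclc, rose by 0.33 ± 0.06.

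Of 13 prostaglandin genes 5 rose and 2 fell (3 rose without APC-WT replicate 2 or APC-KO replicate 1), with Ptgis, Ptgs2 and the prostaglandin D synthase Hpgds (0.52 ± 0.09) among the 5. The share called was 53.8%, beside 24.9% of all tested genes. Among immediate early genes 3 of 27 rose and 5 fell (29.6% called, beside 24.9% of all tested genes), and 2 fell without APC-WT replicate 1 or APC-KO replicate 2. Junb, an AP-1 subunit, was 8.63, 8.10 and 8.75 against 9.41, 9.35 and 9.33 (0.87 ± 0.13), and the factor Klf4 fell by 0.47 ± 0.07. Of 20 p53 targets 3 rose and 3 fell, with Zmat3 0.48 ± 0.08 higher and Gadd45a 0.62 ± 0.15 lower, and 1 rose without APC-WT replicate 1 or 2 or APC-KO replicate 1. In the unfolded protein and integrated stress response 2 of 27 rose, Sdf2l1 and Creld2, which became 0 without APC-WT replicate 2, APC-KO replicate 1 or APC-KO replicate 3 and with only the 2 groups in the fit. In the same list 2 fell (1 without APC-KO replicate 2), among them the factor Ddit3 by 0.54 ± 0.11 (0.27 as the mean of its probe sets). Of 19 cholesterol genes 2 fell and 0 rose (1 fell without APC-WT replicate 1 or 3 or APC-KO replicate 2 or 3), with the isomerase Ebp lower by 0.24 ± 0.06. Of 9 intestinal stem cell genes 2 rose and 2 fell (1 and 1 without APC-WT replicate 2 or APC-KO replicate 2 or 3), with clusterin, Clu, 0.48 ± 0.08 lower on 4 probe sets. The shares called were 30.0% of p53 targets, 14.8% of stress response, 10.5% of cholesterol and 44.4% of stem cell genes. Among all tested genes it was 24.9%.

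The share of genes that passed differed between chromosomes. On chromosome X, the 97 tested genes from Pcdh19 to the distal end stood apart, with 82 higher (84.5%), 1 lower and a median of 0.70, while the 230 before it had 17 higher, 33 lower and a median of -0.03. The same stretch had a median of 0.77 with Dox, with 89 higher and 1 lower. Set against each gene's mean over all arrays, the median over its genes was -0.26, -0.322 and -0.435 in the APC-WT tumours and 0.371, 0.324 and 0.339 in the APC-KO tumours. The zinc finger gene Morc4 was 8.49, 8.30 and 8.25 against 9.87, 9.74 and 9.88 (1.48 ± 0.09, adjusted p 1.86e-07). Armcx1, a mitochondrial transport protein, and the ubiquitin ligase Rnf128 rose by 1.35 ± 0.12 and 1.35 ± 0.10, the iron-binding Pir by 1.22 ± 0.10, and the lymphangiogenic factor Vegfd by 1.07 ± 0.13.

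Within the stretch 14 genes did not pass, of which 3 were singled out after their values were seen. The B cell and myeloid kinase Btk was 7.42, 7.32 and 7.31 against 7.55, 7.40 and 7.30 (0.07 ± 0.08), the RNA sensor Tlr7 differed by -0.17 ± 0.11 and thymosin beta, Tmsb4x, by 0.09 ± 0.04. Tmsb4x passed with quantile normalization (0.0266), with arrays centred (0.0492) and without APC-WT replicate 1 (0.0334). The only lower gene was Armcx3 (-0.42 ± 0.12), which lost its call without APC-WT replicate 1 (0.0891) or APC-KO replicate 1 (0.07) or 2 (0.0782), with array weights (0.105) and with only the 2 groups in the fit (0.0632). The stretch and its bounds were chosen after the values were seen, so its counts are a description without a test, and the copy number of the cells was not measured here.

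On chromosome 10 the 51 tested genes from Hint3 to Prep had 30 higher and 1 lower, with a median of 0.32 and 0.46 with Dox, while the other 487 had 21 higher, 150 lower and a median of -0.13. Across whole chromosomes, chromosome 3 had 226 of 553 genes higher (40.9%) and 20 lower with a median of 0.17, and 71 higher with a median of 0.03 with Dox. Chromosome 19 had 148 of 399 higher (37.1%) and a median of 0.16, and 0.11 with Dox. Chromosome 13 leaned lower, with 97 of 408 lower, 17 higher and a median of -0.09, and -0.15 with Dox. These chromosomes too were singled out after their values were seen.

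**Figure D5:**
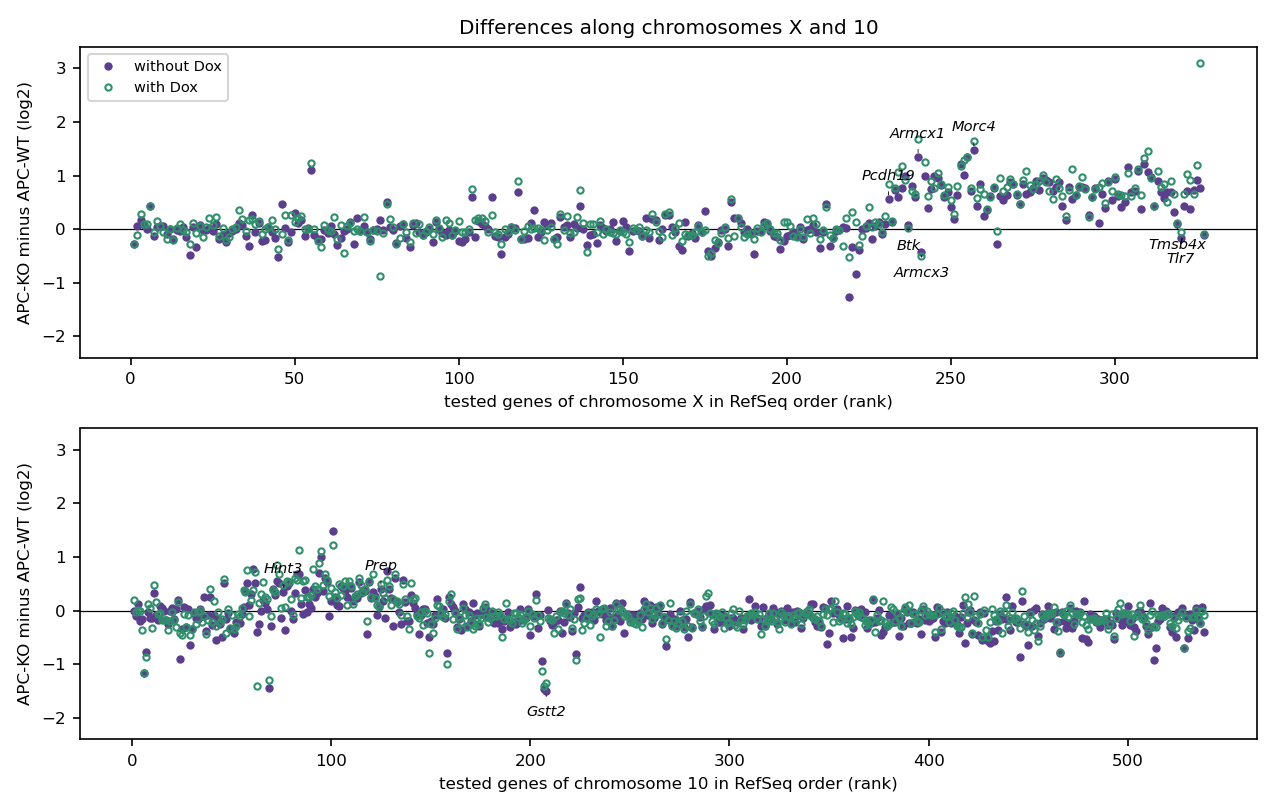
APC-KO minus APC-WT differences (log2) of the tested genes of chromosome X (top) and chromosome 10 (bottom), in RefSeq gene order by rank, without Dox (filled) and with Dox (open). From Pcdh19 to the end of X most points lie near 0.70 in both sets, and between Hint3 and Prep on chromosome 10 near 0.32 without Dox, while the rest of each chromosome scatters around 0 or just under it.

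Nrep, which fell most, is 2 genes away from Apc on chromosome 18 in the order of the genes measured. Chromosome 18 as a whole leaned lower, with 61 of 272 genes lower (22.4%), 14 higher and a median of -0.1, and -0.09 with Dox. Between Nrep and Apc, Epb41l4a was 7.46, 8.15 and 7.62 against 7.58, 7.07 and 7.34 (-0.41 ± 0.16, adjusted p 0.0716), and it passed as lower with array weights (-0.56, 0.0177) and without APC-WT replicate 1 (0.0307) or APC-KO replicate 1 (0.0394). Beyond Nrep, the sterol carrier Stard4 was lower (-0.38 ± 0.13, adjusted p 0.038), and lost its call in 7 alternatives (up to 0.215, with the mean of its probe sets). On the other side of Apc, Srp19, a signal recognition particle subunit, differed by -0.09 ± 0.05, and Reep5 by 0.16 ± 0.05, a call that was lost without APC-WT replicate 1 (0.105) or APC-KO replicate 1 (0.0854) or 3 (0.0524), with quantile normalization (0.0547) and with only the 2 groups in the fit (0.0909), and whose sign turned with the mean of its probe sets (-0.12).

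The genotype difference was tested for a dependence on Dox. By limma's interaction 0 of 11070 genes passed after adjustment (0.0%), while 1312 (11.9%) had an unadjusted p under 0.05. With array weights 13 passed, and with 1 array left out between 0 and 119, the highest number without APC-WT replicate 3 of the tumours without Dox and 1 without APC-KO replicate 1. The lowest adjusted p, 0.129, was shared by several genes. S100a9 and S100a8 were among them, with Dox differences of -2.35 and -2.13, and so were Slc2a1, H2ac19, at 7.30, 7.24 and 7.52 against 8.26, 8.42 and 8.00 (0.87 ± 0.12, and -0.10 with Dox), and the translation factor relative Eif1ad (0.38 ± 0.05, and -0.03 with Dox). Cdh26, a cadherin of epithelia and eosinophils, was 8.17, 7.97 and 7.83 against 7.11, 6.47 and 6.68 (-1.24 ± 0.14, and -0.22 with Dox).

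A control probe set for 18S ribosomal RNA was higher in APC-KO tumours without Dox, at 9.80, 10.16 and 9.89, than in APC-WT tumours, at 9.59, 9.46 and 9.58, and its part in any of these differences was not tested. Array medians lay between 5.535 and 5.576 over the series and correlations between arrays of a group between 0.995 and 0.9979. The promoter genes and the extra Wnt, interferon, T cell and chromosome genes, such as Axin2, Ctnnb1, Bambi, Ccn4, Jun, Stat2, Cd4, Morc4 and Srp19, were singled out after their values were seen.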

How the data were processed

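Total RNA of 12 MC38 tumours had been purified with Trizol and columns and measured as biotinylated cRNA on Affymetrix arrays, per the labels' protocols. The deposited log2 values were made by the authors with MAS5, per the submitters' processing notes, with no version and no scaling or log step given in the sources used here. That they are log2 was read from their range, 1.86 to 14.16. No detection calls were used, and the number of arrays limits the precision.

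Of 45101 probe sets, 64 controls, 932 with several symbols and 9160 with none were left out. For each gene the probe set with the highest mean over 12 arrays was used. The group means of all 12 arrays were estimated in one limma model (limma 3.58.1, R 4.3.3, with lmFit and trended eBayes, two-sided, Benjamini-Hochberg), which was checked on simulated data. With 3 against 3 arrays an exact permutation test has a smallest p of 0.1. Alternatives changed the filter, probe set rule, normalization, weights, block, fit and single arrays. Named genes were Apc and Tdo2, the 15 largest non-overlapping changes each way, up to 4 members per list and the leading interaction genes, beside others named as singled out. Of the 46 lists, 28 were pathways and 18 markers. Members and lists were chosen with earlier results of these data known. Symbols come from the platform annotation, and 34741 probe sets matched RefSeq for names and gene order.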

Additional observations from a re-analysis of the deposited data

Results flagged for a closer look

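Flagged here were 4 genes whose genotype difference ran one way in all 3 APC-KO tumours without Dox and the opposite way in all 3 with Dox. They are not a count over all tested genes, of which 1312 (11.9%) had an unadjusted limma interaction p under 0.05. The 4 genes that passed with opposite signs held Cxcl2 in place of Cd14. S100a9 differed by 3.13 without Dox and by -2.35 with Dox, with an interaction adjusted p of 0.129. S100a8 differed by 2.94 and -2.13, also at 0.129. Cd14 differed by 0.38 and -0.27, with an interaction adjusted p of 0.149. Arhgap11a differed by -0.25 and 0.21, also at 0.149, and its call without Dox was lost without APC-WT replicate 2 (0.0603) or APC-KO replicate 3 (0.0537). None of these interactions passed by limma.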

How the results depend on the processing

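The total of 2753 genes called without Dox stayed within 1.5 times under every alternative, from 1898 with only the 2 groups in the fit to 2945 with quantile normalization, and was 2150 to 2739 with 1 array left out. Of 176 called genes followed, 130 kept their call in every alternative, 40 lost it in at least 1 fit that left out an array and 32 in another alternative. With Dox the count was 3510 with array weights and 1291 to 2354 with 1 array left out, and for the interaction it was 13 with array weights and 0 to 119 with 1 array left out. Signs turned for Btrc (-0.05), Tnks2 (-0.03), Ctnnb1 (-0.04) and Reep5 (-0.12) with the mean of probe sets, for Ctnnb1 (-0.02) with quantile normalization, and for Myc with array weights (-0.05) and with 1 array left out (-0.04 to 0.16, the lowest without the first APC-KO array), and the cause was not tested. The replicate numbers did not pair the tumours: same-numbered tumours without Dox had correlations of deviations of 0.101, 0.138 and 0.004, those with Dox -0.221, -0.017 and -0.212, and not every tumour correlated best with its own number. With the replicate number as a block 2705 genes were called. Genes near the level filter can hide a change or its size.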
